A study of Mus musculus with 17 samples.

Results

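The NMDA receptor subunit genes of the mouse are Grin1, Grin2a, Grin2b, Grin2c, Grin2d, Grin3a and Grin3b, and they were taken by gene symbol from a table of cortical transcript levels. All 7 were found among 55453 distinct symbols, and 6 of the 7 had a mean of at least 1 TPM (transcripts per 1000000 transcripts) over the mice and were tested with 16265 genes in all. Grin3b, with a mean of 0.164 TPM, did not pass this filter and is given by its values.

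NMDA receptors are glutamate-gated cation channels that open when glutamate and a co-agonist, glycine or D-serine, are bound and when depolarization lifts a magnesium block. Each channel holds the obligatory GluN1 subunit, encoded by Grin1, together with GluN2 subunits (Grin2a to Grin2d) or GluN3 subunits (Grin3a and Grin3b), which set its kinetics, magnesium block and calcium entry. In the rodent forebrain GluN2B is present from embryonic life and GluN2A is known to be added after birth, and the balance of these subunits is commonly read as a sign of synaptic maturation.

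Bulk cortex of 17 male C57BL/6J mice was sequenced in 6 groups. Hnrnph2 is an X-linked gene for an RNA-binding protein, so that mutant males carry no second copy. The 8-week groups were hemizygous Hnrnph2 KO mice (n = 3), hemizygous R206W knockin mice (n = 3) and the wild-type littermates of each line (n = 3 each). The 3-week groups were hemizygous P209L knockin mice (n = 3) and their wild-type littermates, of which 2 were analysed here. The KO arose from an indel whose frameshift leads to decay of the transcript, and the knockin lines carry a substitution linked to human disease. Because the 3-week mice were all of the P209L line, age and line cannot be told apart, nor can age and allele among the mutants. Replicates are single mice. The comparisons ask whether the subunit genes differ with each Hnrnph2 allele, and between the ages.

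Hnrnph2 itself was measured first as a check of the labels. Its level was 23.5, 21.3 and 24.4 TPM in the KO mice and 80.5, 145 and 139.7 TPM in their controls, a log2 difference of -2.30 ± 0.17 (SE, n = 3 against 3, limma with Benjamini-Hochberg adjustment, adjusted p = 8.6e-06). In the 14 mice that were not KO it was between 80.5 and 160.4 TPM. Hnrnph1, its close paralog, was 443, 445 and 408 TPM in the KO mice and 246, 337 and 329 TPM in their controls, a log2 difference of 0.52 ± 0.13 that did not pass (SE, n = 3 against 3, limma, adjusted p = 0.806, unadjusted p = 0.00102). The KO mice lay above their controls without overlap, as did 5.43% of all tested genes. By digital-droplet RT-PCR the authors report a significant rise of this transcript in the cortex of male KO mice. One library stood apart: in KO control 1 mitochondrial genes held 20.1% of TPM, against 10.7% to 15.4% in the other 16 mice, and the 10 most abundant genes held 36.5%, against 19.4% to 29.3%. Defining markers of cortical excitatory neurons were all detected in every mouse, with Slc17a7, the vesicular glutamate transporter, between 495 and 912 TPM. The depth of the libraries is unknown, since TPM does not keep it, so precision was judged from the spread between mice.

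The subunit genes are related in sequence, which bears on whether reads could be split between them. Over the whole coding sequences, taken from GRCm38 with the exons of GENCODE M21 joined, no window of 50 bases was shared between any of the 7 members. The longest common run, between Grin2b and Grin2c, was 34 bases, and Grin2c and Grin2d shared a run of 32. Grin1os, an antisense gene that overlaps Grin1, stood at no more than 0.07 TPM.

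The genes differ widely in length in the genome. Grin2a (chromosome 16, 9567898 to 9995560) and Grin2b (chromosome 6, 135713233 to 136173511) span 427663 and 460279 bases, and Grin3a spans 184134. Grin1 spans 28007 bases, Grin2c 18075, Grin2d 46496 and Grin3b 6476.

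TPM is scaled by transcript length, so levels can be set between genes. Grin1, the subunit that every NMDA receptor needs, was the highest member in each of the 17 mice, with a mean of 206.8 TPM, above 96.2% of the tested genes. Grin2b followed with a mean of 44.7 TPM, then Grin2a with 32.8 TPM and Grin2c with 18.1 TPM. Grin3a stood at 9.73 TPM and Grin2d at 3.90 TPM, below most tested genes. Grin2a and Grin2b were the neighbours in this order that changed places between mice, as described below with their ratio.

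Grin1 was 103, 228 and 287 TPM in the KO controls and 198, 181 and 294 TPM in the KO mice. It was 236, 229.5 and 219 TPM in the R206W controls and 214, 213 and 306 TPM in the R206W mice. In the P209L line it was 162 and 194 TPM in the controls and 117, 148 and 187 TPM in the mutants. The lowest value of all mice belonged to KO control 1, and each mutant group overlapped its controls.

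Grin2a, for GluN2A, was 25.6, 40.8 and 39.9 TPM in the KO controls and 35.95, 35.3 and 28.1 TPM in the KO mice. It was 39.2, 42.0 and 38.1 TPM in the R206W controls and 36.9, 36.01 and 36.6 TPM in the R206W mice. In the 3-week controls it was 25.4 and 21.8 TPM and in the P209L mice 26.8, 22.5 and 27.3 TPM. The 3-week values sat below nearly all 8-week values, with KO control 1 as the 8-week mouse that fell among them, and the R206W mice lay just under their controls without overlap.

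Grin2b, for GluN2B, was 30.7, 56.2 and 57.3 TPM in the KO controls and 40.3, 51.2 and 43.0 TPM in the KO mice. It was 57.7, 57.8 and 50.2 TPM in the R206W controls and 62.3, 56.3 and 71.4 TPM in the R206W mice. In the 3-week controls it was 22.4 and 24.5 TPM and in the P209L mice 19.4, 26.5 and 32.8 TPM. Grin2b had the widest relative spread of the tested members over the 17 mice, with a coefficient of variation of 35.8%, and the 3-week mice were the low ones, except that KO control 1 lay below P209L 3.

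Grin2c, for GluN2C, a subunit best known from the cerebellum and from glia, was 15.5, 18.4 and 20.0 TPM in the KO controls and 18.9, 18.2 and 25.2 TPM in the KO mice. It was 17.2, 20.8 and 20.2 TPM in the R206W controls and 18.5, 19.1 and 20.8 TPM in the R206W mice. In the 3-week line it was 14.4 and 18.9 TPM in the controls and 13.0, 14.7 and 14.4 TPM in the P209L mice. KO 3 had the highest value. The summed TPM of 7 cerebellar markers, of which 1 passed the filter, was 3.95 to 5.49 in the KO controls. It was 17.4 in KO 1, 7.94 in KO 2 and 7.98 in KO 3, and 10.2 to 14.1 in the P209L mice. All 6 astrocyte markers were above their control mean in the KO mice. So were 5 of 5 microglia, 4 of 4 endothelial and 6 of 7 oligodendrocyte markers. For interneuron markers it was 3 of 6, and for excitatory neuron markers 2 of 5. Of all tested genes, 67.3% had a log2 difference above 0 in this comparison. The part of the cerebellar and astrocyte markers in the Grin2c values was not tested.

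Grin2d, for GluN2D, a subunit of early development and interneurons, was 2.18, 3.53 and 4.66 TPM in the KO controls and 3.50, 3.27 and 5.13 TPM in the KO mice. It was 4.14, 4.28 and 3.73 TPM in the R206W controls and 3.61, 4.06 and 4.77 TPM in the R206W mice. At 3 weeks it was 3.96 and 4.05 TPM in the controls and 3.43, 4.29 and 3.70 TPM in the P209L mice. All group ranges overlapped, and the means over the ages were 3.89 ± 0.33 TPM at 3 weeks (SD, n = 5) and 3.91 ± 0.79 TPM at 8 weeks (SD, n = 12).

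Grin3a, for GluN3A, a subunit that lowers calcium entry, was 6.49, 10.3 and 10.4 TPM in the KO controls and 8.98, 9.90 and 9.41 TPM in the KO mice. It was 10.8, 10.8 and 10.1 TPM in the R206W controls and 11.1, 10.1 and 11.7 TPM in the R206W mice. At 3 weeks it was 9.72 and 9.18 TPM in the controls and 7.61, 10.7 and 8.27 TPM in the P209L mice. Grin3a varied least of the tested members, with a coefficient of variation of 13.6%. Grin3b, for GluN3B, was between 0.08 and 0.29 TPM in all 17 mice.

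**Figure D1:**
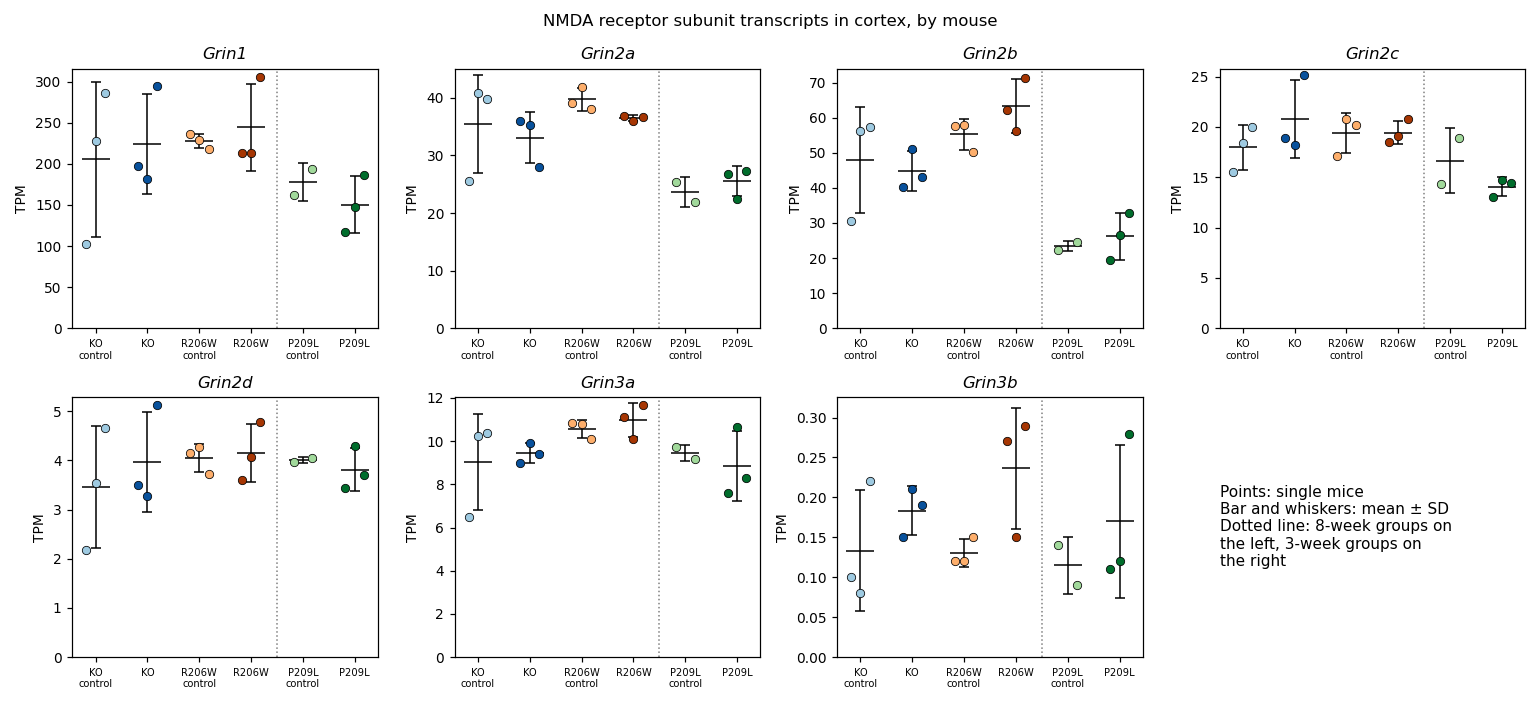
Level of each NMDA receptor subunit gene in TPM (vertical axes, different scales) in the 6 groups, with a point for each mouse, a bar at the group mean and whiskers of 1 SD. Grin2a and Grin2b are lower in the 3-week groups, right of the dotted line, and KO control 1 is the lowest of the KO controls for the 6 tested members.

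No tested member differed between mutants and littermate controls in any line (limma on log2(TPM + 1), Benjamini-Hochberg adjustment over 16265 genes). In KO mice 0 of 6 passed, where 0.00615% of all genes did. In R206W mice 0 of 6 passed, where 0.0369% did, and in P209L mice 0 of 6, where 0.0984% did. By unadjusted p under 0.05 the members called were also 0 in each line, where 4.08%, 2.19% and 7.46% of all genes passed. These intervals still allow changes of some size, since a gene that misses the threshold is not shown to be equal.

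In KO mice the log2 differences lay between -0.07 for Grin2a and 0.22 for Grin1 (limma, adjusted p = 0.999 for each). Grin1 had the widest interval, from -0.41 to 0.84, and that of Grin2b ran from -0.50 to 0.40. With the libraries weighted by their own spread (gene-by-gene array weights, an alternative adopted after the default weights were seen not to converge), Grin2b was lower in KO mice by a log2 difference of -0.38 (limma, adjusted p = 0.0403), and KO control 1 then carried a weight of 0.0819. Without KO control 1 the difference of Grin2b was -0.34 (limma, adjusted p = 0.493), and that of Grin1 turned to -0.22.

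In R206W mice the differences lay between -0.12 for Grin2a and 0.19 for Grin2b. Grin2a was the member whose groups did not overlap, lower in R206W mice at 36.5 ± 0.4 TPM against 39.7 ± 2.0 TPM (SD, n = 3 each). Of all tested genes, 16.2% had groups without overlap in this comparison, and 8.11% of all tested genes were lower without overlap. The difference of Grin2a, with an interval from -0.44 to 0.21, did not pass (limma, adjusted p = 1).

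In P209L mice the differences lay between -0.26 for Grin1 and 0.13 for Grin2b, with adjusted p from 0.850 to 0.986 (limma). The difference of Grin1 ranged from -0.43 without P209L 3 to -0.095 without P209L 1. The interval of Grin2b ran from -0.38 to 0.63 and that of Grin2a from -0.26 to 0.47. In this line all 7 oligodendrocyte markers were below their control mean, by a median log2 difference of -0.81. So were 5 of 5 microglia, 4 of 4 endothelial, 4 of 6 astrocyte, 3 of 6 interneuron and 1 of 5 excitatory neuron markers. Of all tested genes, 53.5% had a log2 difference above 0 in this comparison. The part of these markers in the values of the members was not tested. In bulk tissue fewer cells of a type and less RNA per cell cannot be told apart.

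Whether an allele's difference from its controls departed from that in R206W mice was tested for KO and for P209L. For both, 0 of 6 members passed (limma, adjusted p = 1 in each after rounding), where 0.0307% and 0% of all genes passed, and 0 had an unadjusted p under 0.05, where 2.29% and 3.98% did. The wild-type mice of the R206W and KO lines, which share an age, differed in 0 of 6 members (limma), where 0% of all genes passed, and in 0 by unadjusted p, where 3.12% did.

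More members were called between the ages than for any allele, as was true of all tested genes. Grin2b was 23.4 ± 1.5 TPM in the 3-week controls (SD, n = 2) and 51.6 ± 10.7 TPM in the 8-week controls (SD, n = 6), a log2 difference of -1.08 ± 0.21 (SE; limma, adjusted p = 0.0014). Grin2a was 23.6 ± 2.5 and 37.6 ± 6.0 TPM, a log2 difference of -0.63 ± 0.15 (SE; limma, adjusted p = 0.0054). These were 2 of 6 tested members, both lower at 3 weeks, where 24.8% of all genes were called lower and 11.3% higher. Neither overlapped between the ages, where 21.5% of all genes were lower without overlap. Grin1, Grin2c, Grin2d and Grin3a did not pass, with log2 differences of -0.22, -0.16, 0.10 and -0.03. Grin1 passed in the controls in 1 of 19 alternative settings, the gene-by-gene array weights, at -0.38 (limma, adjusted p = 0.0449).

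The mutants, which are other mice split by the same ages, gave 3 of 6, all lower at 3 weeks, where 32.1% of all genes were lower and 13.9% higher. Here the 3-week mice are all P209L and the 8-week mice KO or R206W, so age, line and allele cannot be told apart. Grin2b had a log2 difference of -1.02 ± 0.18, Grin2c of -0.48 ± 0.12 and Grin2a of -0.43 ± 0.13 (SE; limma, adjusted p = 0.0005, 0.0049 and 0.0154), and none of the 3 overlapped between the ages, where 28.6% of all genes were lower without overlap. Grin1 differed by -0.63 ± 0.26 and did not pass (SE; limma, adjusted p = 0.0545), though it passed in 8 of 21 alternative settings. The call of Grin2a ended when values were rescaled by size factors (log2 difference -0.25, adjusted p = 0.0516), by quantile normalization, and without P209L 2 (log2 difference -0.35, adjusted p = 0.0922). In the controls it ended without P209L control 2 (log2 difference -0.53, adjusted p = 0.0917).

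The median gene also moved between the ages, by -0.12 in controls and -0.16 in mutants. After size factors, which put that median close to 0, Grin2b differed by -0.94 in controls and -0.84 in mutants. Markers of excitatory neurons were all below their 8-week mean, with a median of -0.67 in controls and -0.73 in mutants. Of these 5, 3 passed in each. All 6 astrocyte markers were below it too, with medians of -0.39 and -0.58. Microglia markers were below it in 4 of 5 in controls and 5 of 5 in mutants, and endothelial markers in 3 and 4 of 4. Interneuron markers were below it in 3 of 6 in controls and 5 of 6 in mutants. Of 7 oligodendrocyte markers, 6 were above it in controls and 2 in mutants. Of all tested genes, 39.3% had a log2 difference above 0 in controls and 36.2% in mutants. Long genes were called lower more often: of 497 protein-coding genes of at least 300 kb, 54.3% were lower at 3 weeks in controls and 2.01% higher, with a median of -0.48. Of 3164 genes under 10 kb, 11.7% were lower and 24.1% higher, with a median of 0.11. Grin2a and Grin2b are of the longest class. The part of cell type markers and gene length in the age differences was not tested.

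**Figure D2:**
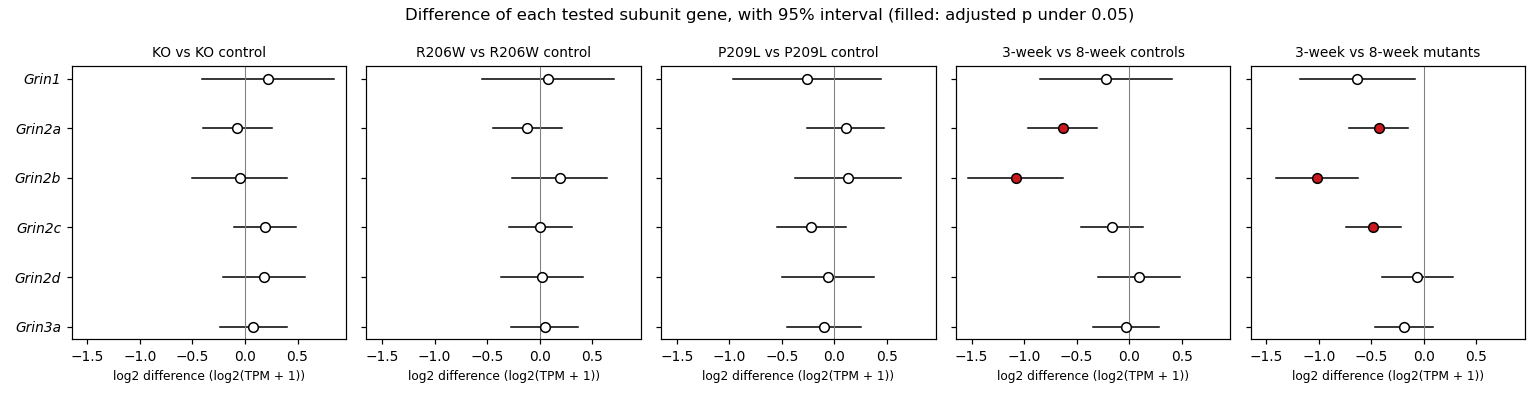
Log2 difference, on the log2(TPM + 1) scale, of the 6 tested members (rows) in each of 5 comparisons (panels), with its 95% interval, filled where the adjusted p was under 0.05. All mutant intervals contain 0, whereas Grin2a and Grin2b are lower at 3 weeks in both age comparisons and Grin2c is lower in the mutants.

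**Figure D3:**
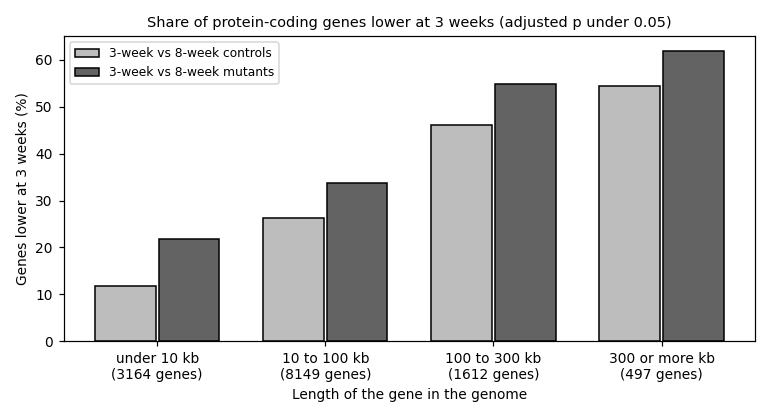
Percent of protein-coding genes called lower at 3 weeks (vertical axis), by length of the gene in the genome, for controls and mutants. The share rises from 11.7% under 10 kb to 54.3% at 300 kb or more in controls, and reaches 62.0% in mutants.

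The ratio of Grin2a to Grin2b within a mouse does not depend on how that mouse's values are scaled. In the KO controls it was 0.835, 0.726 and 0.695 and in the KO mice 0.892, 0.690 and 0.653. In the R206W controls it was 0.679, 0.726 and 0.759 and in the R206W mice 0.593, 0.640 and 0.513. At 3 weeks it was 1.14 and 0.893 in the controls and 1.38, 0.850 and 0.832 in the P209L mice. Grin2b was above Grin2a in all 12 of the 8-week mice and in 3 of the 5 at 3 weeks.

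The ratio was 1.02 ± 0.24 at 3 weeks (SD, n = 5) and 0.700 ± 0.101 at 8 weeks (SD, n = 12), so the older mice had relatively more Grin2b. This direction is opposite to a rise of GluN2A relative to GluN2B after birth. The values are transcripts of bulk cortex with 1 line at 3 weeks, and the cause was not tested. Of the 8-week mice, KO 1 and KO control 1 reached the 3-week range. The average of the log2 differences of the ratio within controls and within mutants was 0.53 (exact permutation test, two-sided, p = 0.0026, adjusted over 6 ratio tests 0.0153). It passed no longer when P209L control 1, P209L control 2 or P209L 1 was left out, with log2 differences of 0.44, 0.62 and 0.41 and an adjusted p of 0.0612 in each (exact permutation test). In the controls alone the difference was 0.46 without overlap (exact permutation test, p = 0.0714), which is the smallest p that 2 mice against 6 allow. It was 0.28 without P209L control 1 and 0.63 without P209L control 2.

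The alleles were compared in the same way. In R206W mice the ratio was 0.582 ± 0.064 against 0.721 ± 0.040 (SD, n = 3 each), a mean log2 difference of -0.31 without overlap. Its p was 0.1 (exact permutation test, two-sided, adjusted p = 0.2), which is the smallest that 3 mice against 3 allow, so this design could not reach 0.05. The differences in KO and P209L mice were -0.02 each, with p of 0.9 and 1 (exact permutation test), and the R206W and KO controls differed by -0.06 (exact permutation test, p = 0.6).

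**Figure D4:**
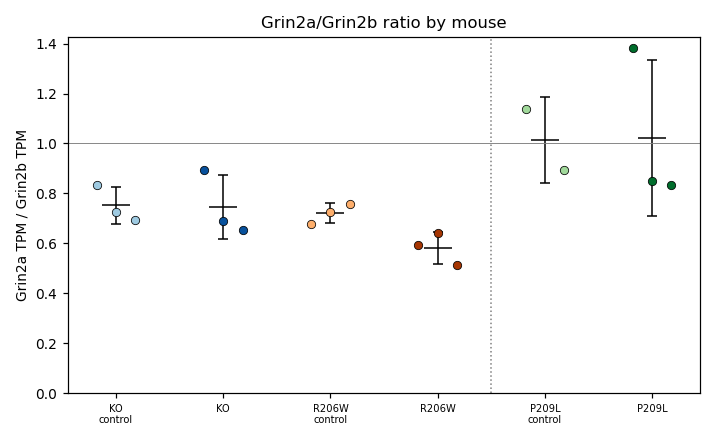
Ratio of Grin2a TPM to Grin2b TPM (vertical axis) in each mouse of the 6 groups, with the mean and 1 SD. The R206W mice are the lowest group, at 0.513 to 0.640, and 2 of the 5 mice at 3 weeks lie above 1.

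The summed level of the 4 GluN2 genes was 68.8 ± 5.8 TPM at 3 weeks and 112 ± 15.6 TPM at 8 weeks (SD, n = 5 and 12). Grin2b made up 36.2% of this sum at 3 weeks and 46.7% at 8 weeks. Grin2a made up 36.2% and 32.4%, Grin2c 22.0% and 17.5%, and Grin2d 5.67% and 3.48%. The shares of Grin2d and Grin2c were thus the larger at 3 weeks while the Grin2d level was close to equal. Set against Grin1, the GluN2 sum was 0.436 ± 0.066 at 3 weeks and 0.517 ± 0.094 at 8 weeks, with overlapping ranges, and Grin3a stood at 5.77 ± 1.18 and 4.61 ± 0.84 per 100 TPM of Grin1. These shares are descriptions without a test.

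**Figure D5:**
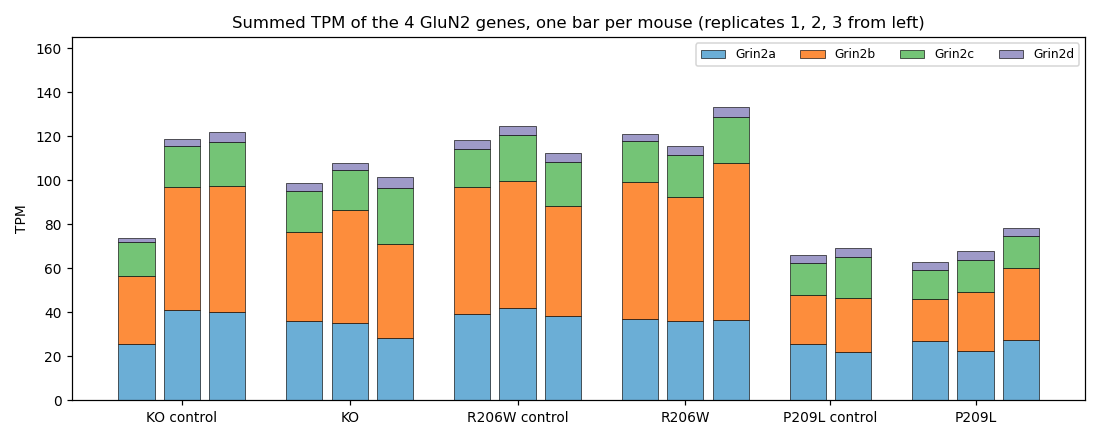
Summed TPM of Grin2a, Grin2b, Grin2c and Grin2d in each mouse (one stacked bar per mouse, grouped as named). The 3-week bars are the shorter ones, between 62.7 and 78.1 TPM, and KO control 1, at 73.9 TPM, is as short.

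Proteins that anchor, carry or modify the receptor, or supply its co-agonist, were described from a list of 29 genes, 28 of them tested. In KO, R206W and P209L mice 0 passed (limma), where 0.00615%, 0.0369% and 0.0984% of all genes did. By unadjusted p under 0.05 the counts were 0, 0 and 1, where 4.08%, 2.19% and 7.46% of all genes passed. In the controls 12 were lower and 2 higher at 3 weeks, with a median log2 difference of -0.35, and in the mutants 16 were lower and 3 higher, with a median of -0.49, against medians of all genes of -0.12 and -0.16. Of all genes, 24.8% were called lower and 11.3% higher in controls, and 32.1% and 13.9% in mutants. Of 9 scaffold and trafficking genes, 5 were lower and 1 higher in controls and 5 lower and 2 higher in mutants. Of 12 kinase, phosphatase and effector genes, 6 were lower and 1 higher in controls and 7 lower and 1 higher in mutants. Of 5 tested genes of the co-agonist supply, 1 was lower in controls and 4 in mutants. Of the 2 genes linked to the subunit switch, Rest and Reln, 0 passed in both (limma). By unadjusted p under 0.05 the count was also 0 in controls and in mutants, where 46% and 53.7% of all genes passed.

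Among these partners Apba1, an adaptor in the transport of vesicles with GluN2B, was lower at 3 weeks by log2 differences of -0.92 in controls and -0.99 in mutants, at 32.9 against 63.5 TPM and 34.1 against 68.7 TPM. Lin7b, which joins Apba1 and Cask in that complex, was higher at 3 weeks, at 207.6 against 109 TPM in controls and 172 against 124 TPM in mutants. Cask was lower, at 21.1 against 37.99 TPM in controls and 25.0 against 38.2 TPM in mutants. Dlg2, for the scaffold PSD-93, was lower by -0.58 and -0.49. Dlg4, for PSD-95, was lower at 317 against 450.0 TPM in controls and 310 against 494 TPM in mutants. Camk2a, a kinase that binds GluN2B, was lower by -0.69 in controls and -1.11 in mutants, and Nos1, which is tethered to the receptor through PSD-95, by -1.06 and -1.16. Slc6a9, the glycine transporter GlyT1, was lower at 10.4 against 18.1 TPM in controls and 7.33 against 20.1 TPM in mutants. The calls of Camk2a and Nos1 in controls ended without P209L control 1 (limma, adjusted p = 0.0792 and 0.0647).

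The members did not all follow each other over mice. For deviations of log2 values from the group means over the 17 mice, Grin1 had an r of 0.90 with Grin2d and 0.81 with Grin2b, 0.44 with Grin2a, and Grin2a had an r of -0.05 with Grin2c. These are descriptions, since values of one library share its composition and KO control 1 is among them. The genes whose log2 values were most like each member over the 17 mice were Pfkm, Puf60 and Tmem59l for Grin1 (r from 0.988 to 0.992), Rmnd5a, Usp33 and Tgoln1 for Grin2a (0.974 to 0.976), and Pcdh9, Dhx9 and Dnajc6 for Grin2b (0.986 to 0.989). They were Slco2b1, Mavs and Itgb5 for Grin2c (0.956 to 0.959), Cc2d1a, Ubac2 and Cope for Grin2d (0.949 to 0.962) and Spon1, Golgb1 and Gria1 for Grin3a (0.922 to 0.934).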

How the data were processed

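The authors deposited TPM values by gene symbol, with a column for each of the 17 mice. The submitters' processing notes name Trim Galore, STAR 2.7.1a, GATK 4.0.4.0, RSEM and mm10, with no role given; libraries were stranded total RNA. Repeated symbols were summed. Depth is not kept in TPM, so no counting error is given.

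Genes with a mean of at least 1 TPM were fitted as log2(TPM + 1), which understates changes of low genes, with limma 3.58.1 in R 4.3.3 (one mean per group, eBayes with trend, two-sided, threshold 0.05, 95% intervals), all 17 mice sharing one spread per gene. The ratio Grin2a/Grin2b was tested by exact permutation of mice. The fit was tested on simulated data. Positions came from GENCODE M21 (GRCm38), matched by symbol for 99.2% of tested genes. Stretches of coding sequence are not reported here.

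The members, the partner and marker lists and the tests were chosen with earlier results of these data known. The text names all members, the genes of the label check, up to 6 partners with the smallest p in each age comparison, and the 3 genes most like each tested member by Pearson r. Alternatives were other pseudocounts, filters and scalings, removal of mitochondrial genes, separate fits, robust estimation, array weights, a replicate block and leaving out each mouse.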

Additional observations from a re-analysis of the deposited data

Results flagged for a closer look

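Among the 6 wild-type mice at 8 weeks, KO control 1 lay far below the other 5 for 4 members, by the gap between it and the next mouse relative to the whole range. It had 102.54 TPM of Grin1, 25.6 TPM of Grin2a, 30.65 TPM of Grin2b and 6.49 TPM of Grin3a. Grin1 passed the limit of this rule narrowly, at 0.631 against 0.625. Chance alone marks about 1 in 20 such groups for each quantity, and all members and some of their ratios were examined. The 4 values come from a single library, whose mitochondrial share was also the highest of the 17 mice at 20.1%. Its part in the low values was not tested.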

How the results depend on the processing

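Of the mutant comparisons, no setting but one called a member. The exception was array weights: the planned default method did not converge (weights from 2.44e-14 to 138) and its values were not used, and the gene-by-gene method, chosen after this was seen, called 1 member in KO mice, Grin2b at -0.38. The unconverged fit had called 0 there. With the gene-by-gene weights the uncalled log2 differences of Grin1, Grin2d and Grin3a in KO mice turned to -0.23, -0.043 and -0.13, those of Grin1, Grin2c and Grin2d in R206W mice to -0.035, -0.058 and -0.056, Grin3a in P209L mice to 0.0041, Grin2d between the ages in mutants to 0.079 and Grin1 between the wild-type lines to -0.030.

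Size factors and quantile normalization turned Grin2c in R206W mice to -0.0026 and -0.00084, Grin2c between the wild-type lines to -0.033 and -0.038, Grin3a between the ages in controls to 0.098 and 0.14 and Grin2d between the ages in mutants to 0.083 and 0.10. Quantile normalization also turned Grin2c between the ages in controls to 0.014 and Grin3a in mutants to 0.024. The call of Hnrnph2 in KO mice missed the threshold when its 2 groups were fitted alone (adjusted p = 0.0828). The causes were not tested.

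Leaving out 1 mouse at a time gave ranges that crossed 0. In KO mice they were -0.22 to 0.52 for Grin1, -0.29 to 0.040 for Grin2a, -0.34 to 0.10 for Grin2b, -0.047 to 0.37 for Grin2d and -0.12 to 0.18 for Grin3a. In R206W mice they were -0.093 to 0.17 for Grin1, -0.074 to 0.057 for Grin2c and -0.063 to 0.099 for Grin2d, and in P209L mice -0.042 to 0.32 for Grin2b. Between the wild-type lines they were -0.16 to 0.57 for Grin1, -0.022 to 0.30 for Grin2a, -0.042 to 0.40 for Grin2b and -0.0054 to 0.41 for Grin2d. Between the ages they were -0.35 to 0.025 for Grin2c, -0.014 to 0.19 for Grin2d and -0.13 to 0.020 for Grin3a in controls, and -0.14 to 0.016 for Grin2d in mutants. The members called between the ages in controls were 1 to 2. The log2 ratio of Grin2a to Grin2b ranged from -0.16 to 0.065 in KO mice, -0.26 to 0.15 in P209L mice, -0.11 to 0.020 between the wild-type lines, 0.41 to 0.62 between the ages and 0.28 to 0.63 between the ages in controls alone. A lone mouse left in a group is assumed to vary like the others.

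Replicate numbers do not appear to pair the mice: deviations of same-numbered mice correlated from -0.11 to 0.33. With 2 or 3 mice per group this cannot exclude a pairing. With the replicate block 0 members were called in each mutant line, 2 between the ages in controls and 4 in mutants, where Grin1 then passed (limma, adjusted p = 0.0135), and the ratio in P209L mice turned to 0.10. Grin2b between the ages stayed called in all alternatives, from -1.22 to -0.92 in controls and -1.19 to -0.83 in mutants. The main limits are the 2 wild-type mice at 3 weeks, an age given by 1 line, and TPM without depth.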
